A study of Mus musculus with 6 samples.

Results

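Epithelial-mesenchymal transition (EMT) regulators and marker genes were examined in p140Cap-expressing vs. mock TuBo cells by RNA-Seq. The 10 genes were *Snai1*, *Snai2*, *Twist1*, *Zeb1* and *Zeb2*, which encode EMT-inducing transcription factors, *Cdh1* and *Esrp1* of the epithelial state, and *Cdh2*, *Vim* and *Fn1* of the mesenchymal state. They were taken by gene symbol from the 21960 genes of the deposited counts, in which each symbol had 1 row. TuBo cells come from a mammary carcinoma of a BALB/c-MMTV-NeuT mouse, in which the MMTV promoter drives the activated rat HER2/Neu oncogene in mammary epithelium. All 6 libraries, 3 mock and 3 p140Cap, are from this background. The labels give mock cells as wild type, with no added p140Cap. p140Cap cells were infected with a pBabe-puro retrovirus carrying p140Cap cDNA and selected with puromycin, and single-cell clones that expressed p140Cap were then pooled. The sources used here do not say whether mock cells carried an empty vector, were selected or passed through single-cell cloning. A difference between the groups therefore cannot be told apart from an effect of infection, selection or cloning. The age of the cultures is not given, and the labels call the samples cell lines in one field and mice in another.

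In EMT, epithelial cells loosen their E-cadherin junctions and take on mesenchymal properties such as N-cadherin, vimentin and a fibronectin matrix. Factors of the Snail, Twist and Zeb families drive this change by repressing epithelial genes, and Snail and Zeb proteins do so by binding E-box motifs, for instance in the promoter of *Cdh1*. ESRP1 acts on the other side, keeping the epithelial splice forms of many transcripts, and many carcinoma cells are known to hold epithelial and mesenchymal markers at the same time.

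Libraries held 33058719 to 75506562 reads on genes in mock cells and 13770385 to 15364850 in p140Cap cells, so that low levels were measured with less precision in p140Cap cells. Levels are given as CPM, read counts scaled to library size with edgeR's TMM factors. *Srcin1*, the gene of p140Cap, was at 12.8 to 16.6 CPM in mock and at 2244 to 2519 CPM in p140Cap libraries, as the labels say. The epithelial nature of the line was checked with 6 markers. *Krt8*, *Krt18*, *Epcam* and *Erbb2* were at 615 CPM or more on average in either group and *Elf3* at 33.1 ± 1.72 CPM or more. *Krt19*, encoding a luminal keratin, had 6 reads over all mock and 9 over all p140Cap libraries. The sources do not say whether reads of the rat HER2/Neu oncogene were counted as *Erbb2*, so its level may include that gene. Whether replicates were independent cultures is not stated, so p-values measure the spread between these libraries alone.

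Of the 10 genes, 8 had enough reads for a test and 2, *Snai2* and *Zeb1*, did not. p140Cap cells had almost no *Fn1* and little *Cdh2* mRNA, and both genes were already low in mock cells (means of 5.47 and 6.53 CPM). *Vim*, which marks the same state, rose slightly, as did *Twist1*, *Cdh1* and *Esrp1*, while *Zeb2* fell and *Snai1* did not pass the test. With edgeR's quasi-likelihood test and an adjusted p under 0.05, 4 of the 8 tested genes were higher and 3 were lower in p140Cap cells. The 4 higher became 2 without mock replicate 3 and 2 without p140Cap replicate 1, *Cdh1* and *Esrp1* being lost. These counts do not set the genes apart, because 71.1% of the 11800 genes tested were called, 35.2% higher and 35.9% lower. A decrease of at least 1 log2 unit was seen for 2 of the 8 tested members, *Fn1* and *Cdh2*, and for 5.04% of all genes tested. No member rose by that much. *Fn1* and *Cdh2* both passed the filter on low counts through their level in mock cells alone. The count of decreases is therefore not support for a difference of the 10 genes from the rest. The CPM ranges of the groups did not overlap for the 8 tested genes, as for 73.4% of all genes tested. In bulk RNA, fewer cells expressing a gene and less of its RNA per cell cannot be told apart.

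**Figure D1:**
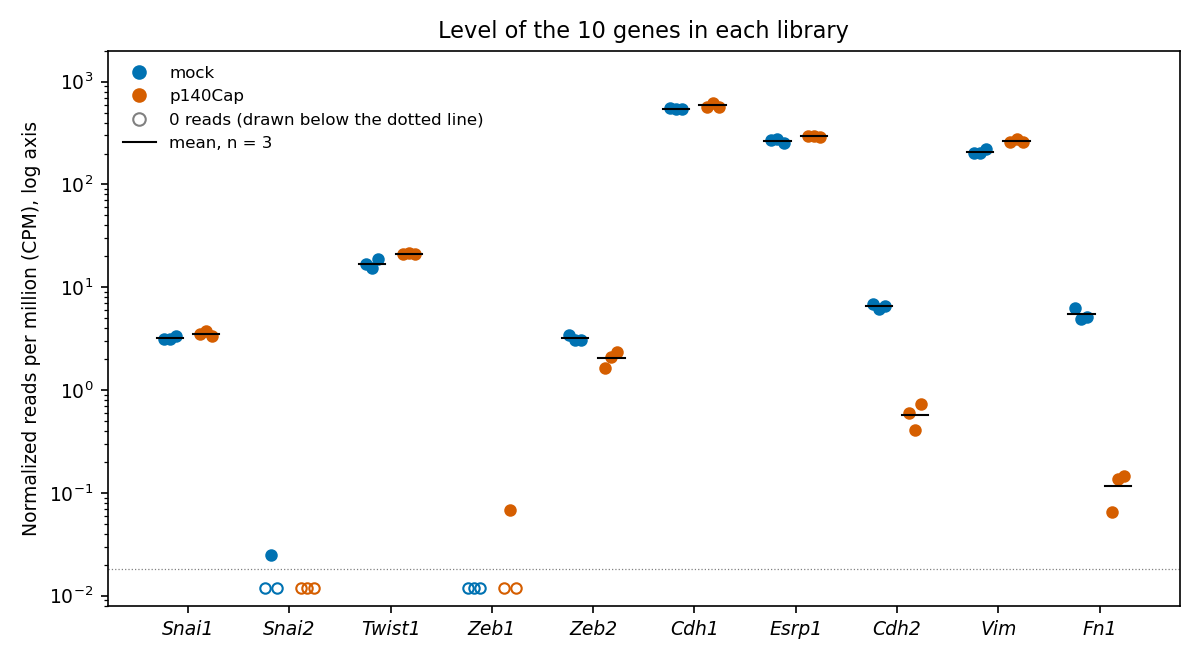
CPM on a log axis for the 10 genes in each of the 3 mock (blue) and 3 p140Cap (orange) libraries, with the group mean as a bar for tested genes and libraries with 0 reads as open circles below the dotted line. *Cdh1* lies at 537 CPM or more in every library, whereas *Fn1* lies between 4.90 and 6.31 CPM in mock and at 0.147 CPM or less in p140Cap libraries.

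*Fn1* (ENSMUSG00000026193), encoding fibronectin, the matrix glycoprotein bound by α5β1 and αv integrins, lies on chromosome 1 from 71585473 to 71653280 (GRCm38.p6). Counts were 483, 195 and 173 in mock but just 1, 2 and 2 in p140Cap libraries. Every p140Cap library was thus close to the detection limit, far below every mock library. Means (± SD of 3 libraries) were 5.47 ± 0.743 CPM for mock and 0.116 ± 0.0440 CPM for p140Cap, and edgeR fitted a log2 fold change of -5.55 (SE 0.32) with an adjusted p of 2.03e-10. When reads were pooled per group, mock exceeded p140Cap 49.5-fold. The exact 95% limits of this ratio, 21.1 and 153, take in counting error alone, and the p140Cap side consists of 5 reads.

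*Cdh2* (ENSMUSG00000024304; chromosome 18, 16588877 to 16809246), encoding N-cadherin, the cadherin gained in the classical cadherin switch, had 527, 244 and 219 reads in mock and 9, 6 and 10 reads in p140Cap libraries. The mock libraries were at 6.89, 6.13 and 6.58 CPM and the p140Cap libraries at 0.593, 0.409 and 0.734 CPM. Here too the groups were well separated, with less difference among replicates than between groups. edgeR gave a log2 fold change of -3.50 (SE 0.19) at an adjusted p of 1.28e-10. Pooled reads gave an 11.5-fold excess in mock, with exact 95% limits of 7.75 and 17.9 for counting error.

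*Vim* (ENSMUSG00000026728; chromosome 2, 13574311 to 13582826), encoding the intermediate filament protein vimentin, did not share in this loss. It was at 203, 202 and 222 CPM in the mock libraries and at 259, 279 and 258 CPM in the p140Cap libraries, which were all higher. This rise came to 0.35 log2 units (SE 0.05) at an adjusted p of 1.72e-05 by edgeR. The 3 mesenchymal genes therefore moved in different directions. A change at least as large as that of *Vim* was common, since 46.5% of the genes tested had a larger absolute log2 fold change.

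*Cdh1* (ENSMUSG00000000303; chromosome 8, 106603350 to 106670247), encoding E-cadherin, the adhesion molecule of epithelial junctions, had between 17870 and 42201 reads in mock and between 7744 and 9122 reads in p140Cap libraries. It was at 551, 540 and 537 CPM in mock and at 571, 621 and 569 CPM in p140Cap cells. The lowest p140Cap library was thus just above the highest mock library. edgeR gave a log2 fold change of 0.11 (SE 0.05) with an adjusted p of 0.0471, and 80.2% of the genes tested had a larger absolute change. This call is at the limit of the threshold. It was lost when any of the 6 libraries was left out (adjusted p = 0.0531 to 0.186, edgeR). Group means were 543 ± 7.75 CPM in mock and 587 ± 29.6 CPM in p140Cap cells (SD, 3 libraries each).

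*Esrp1* (ENSMUSG00000040728; chromosome 4, 11331933 to 11386783), encoding an RNA-binding protein that directs epithelial splicing, was at 269, 274 and 251 CPM in mock and at 296, 298 and 287 CPM in p140Cap libraries. All 3 p140Cap libraries were higher. Its log2 fold change by edgeR was 0.15 (SE 0.05), with an adjusted p of 0.0120. The call was lost without mock replicate 3 (adjusted p = 0.0577) or without p140Cap replicate 1 (adjusted p = 0.0520, edgeR). Splice forms themselves were not analysed here, because the counts are per gene.

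To compare epithelial with mesenchymal genes without any scaling between libraries, reads of *Cdh1* were divided by those of each mesenchymal gene in the same library. For every read of *Vim* there were 2.71, 2.68 and 2.42 reads of *Cdh1* in the mock libraries and 2.20, 2.22 and 2.21 in the p140Cap libraries. On this ratio p140Cap cells lay slightly toward *Vim*, with a log2 difference of -0.23 between group means and SDs of 0.09 in mock and 0.00763 in p140Cap cells. For *Cdh2* the order was the opposite, with 80.1, 88.0 and 81.6 reads of *Cdh1* per read in mock and 963, 1520 and 774 in p140Cap libraries. Per read of *Fn1*, there were 87.4, 110 and 103 reads of *Cdh1* in mock and 8668, 4561 and 3872 in p140Cap libraries. The latter ratios have a wide error, as each rests on 1 or 2 reads of *Fn1*. In none of the 3 ratios did the groups overlap. No test was made on the ratios, because with 3 libraries per group the smallest exact permutation p is 0.1.

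**Figure D2:**
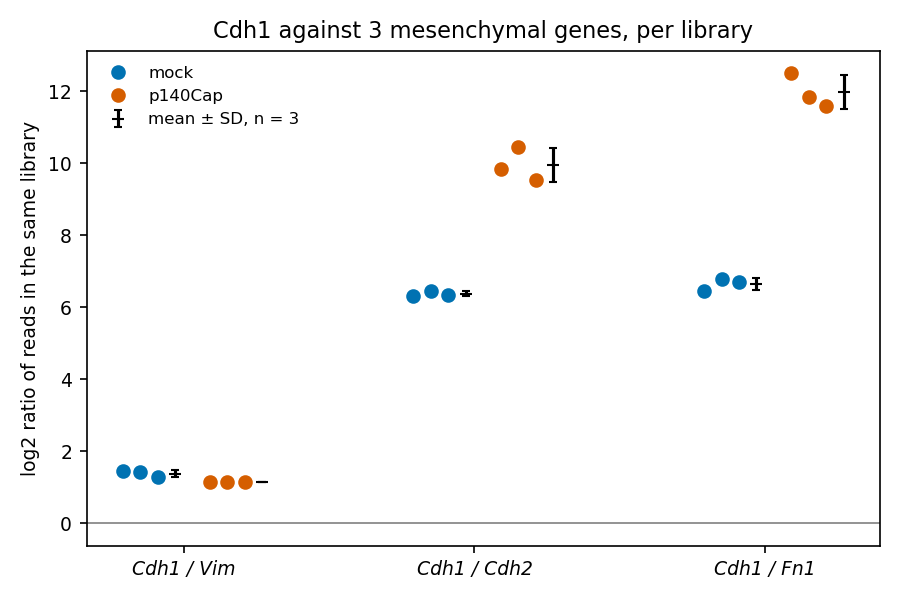
log2 of the ratio of *Cdh1* reads to reads of *Vim*, *Cdh2* or *Fn1* (0.5 added to each count) in each library, mock in blue and p140Cap in orange, with mean ± SD (n = 3). The ratio to *Vim* is slightly lower in p140Cap cells, with a difference of -0.23, and the ratios to *Cdh2* and *Fn1* are higher by 3.56 and 5.34.

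*Snai1* (ENSMUSG00000042821; chromosome 2, 167538195 to 167542814), encoding the zinc finger repressor SNAIL, was a rare transcript at 3.12, 3.12 and 3.33 CPM in mock and 3.49, 3.75 and 3.38 CPM in p140Cap libraries. The p140Cap values were slightly above the mock values, but the log2 fold change of 0.16 (SE 0.13, adjusted p = 0.306, edgeR) did not pass the threshold. *Twist1* (ENSMUSG00000035799; chromosome 12, 33957671 to 33959831), encoding a basic helix-loop-helix factor, was the most abundant of the 5 regulators. It rose from 16.9, 15.3 and 18.9 CPM in mock to 21.2, 21.6 and 21.2 CPM in p140Cap libraries, or by 0.33 log2 units (SE 0.08) at an adjusted p of 0.00161 by edgeR. No p140Cap library overlapped with a mock library.

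Promoters of 4 of the 10 genes, *Snai1*, *Twist1*, *Zeb2* and *Vim*, were found in the RefSeq promoter table (GRCm38.p6). They were searched for the E-box CACCTG on either strand (CAGGTG when read on the other), the motif that Snail and Zeb factors prefer. The windows ran from 250 bases before to 50 bases after each annotated start. The motif was found once, in the promoter of *Snai1*, 126 bases before its start, and in none of the windows of *Twist1*, *Vim* or *Zeb2*, which has 4 annotated starts. Of all 32851 promoters of this length, 20.2% hold it. The 250 bases before the start are shown for *Snai1*, with the E-box in capitals, and for *Twist1* and *Vim*, which both rose, for comparison, all on the plus strand. They are chr2:167537945-167538194 for *Snai1*, chr12:33957421-33957670 for *Twist1* and chr2:13574061-13574310 for *Vim*.
Snai1: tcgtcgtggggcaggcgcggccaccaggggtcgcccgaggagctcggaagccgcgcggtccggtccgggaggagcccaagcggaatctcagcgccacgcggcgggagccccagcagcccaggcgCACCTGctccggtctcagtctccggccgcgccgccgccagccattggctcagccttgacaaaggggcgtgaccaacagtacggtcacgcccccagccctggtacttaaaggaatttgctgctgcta
Twist1: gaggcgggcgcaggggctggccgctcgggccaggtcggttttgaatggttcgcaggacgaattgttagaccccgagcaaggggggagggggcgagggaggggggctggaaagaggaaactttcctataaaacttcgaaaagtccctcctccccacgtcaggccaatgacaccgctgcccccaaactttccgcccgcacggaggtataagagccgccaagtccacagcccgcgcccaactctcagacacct
Vim: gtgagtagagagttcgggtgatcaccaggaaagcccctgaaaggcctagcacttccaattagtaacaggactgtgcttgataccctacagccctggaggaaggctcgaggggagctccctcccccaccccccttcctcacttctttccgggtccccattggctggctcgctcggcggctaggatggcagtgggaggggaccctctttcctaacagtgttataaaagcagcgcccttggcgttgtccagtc

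*Zeb2* (ENSMUSG00000026872; chromosome 2, 44983512 to 45117442), encoding a zinc finger homeobox repressor, was the one regulator that fell. It had 263, 123 and 103 reads in mock and 25, 31 and 32 reads in p140Cap libraries, or 3.44, 3.09 and 3.09 CPM against 1.65, 2.11 and 2.35 CPM. The groups did not overlap, though the p140Cap libraries were spread more widely. This decrease had a log2 fold change of -0.68 (SE 0.17) and an adjusted p of 0.00165 by edgeR.

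*Zeb1* (ENSMUSG00000024238; chromosome 18, 5591327 to 5775468), its paralog, was not detected in mock and had 1 read, in p140Cap replicate 2, over all p140Cap libraries. *Snai2* (ENSMUSG00000022676; chromosome 16, 14705852 to 14709395), encoding SLUG, the Snail family repressor of basal mammary cells, had 0, 1 and 0 reads in mock and 0 reads in each p140Cap library. With 0 reads, the level of *Zeb1* in mock cells could be up to 0.0201 CPM and that of *Snai2* in p140Cap cells up to 0.0690 CPM, the levels that 3 reads over the group would give. Both regulators were thus at the detection limit in either group, and no fold change is given.

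**Figure D3:**
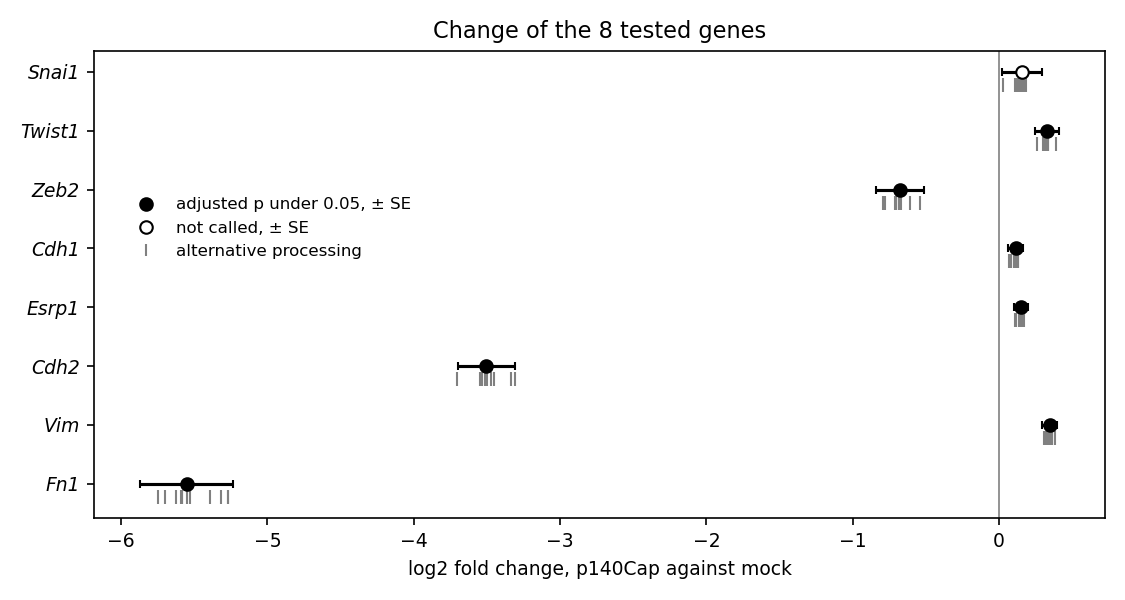
log2 fold change (p140Cap against mock) ± SE of the 8 tested genes, filled where the adjusted p was under 0.05 and open where it was not. Gray ticks mark the values under alternative processing, between -5.75 and -5.27 for *Fn1* and between 0.31 and 0.39 for *Vim*.

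Levels of different genes were compared as CPM per kb of annotated exon (union of exons, GENCODE vM39). In mock cells the order was *Cdh1* (117 ± 1.67 CPM per kb), *Vim* (44.0 ± 2.35), *Esrp1* (33.8 ± 1.53), *Twist1* (10.3 ± 1.09), *Snai1* (1.97 ± 0.0757), *Cdh2* (0.754 ± 0.0436), *Fn1* (0.346 ± 0.0470) and *Zeb2* (0.141 ± 0.00873; SD, n = 3 libraries), followed by *Snai2* and *Zeb1*. No 2 neighbours overlapped between libraries in this order, other than *Snai2* and *Zeb1*. The SDs do not take in the choice of exon length. The unions, of 22741 bases for *Zeb2*, 15831 for *Fn1* and 8669 for *Cdh2*, hold exons of all annotated transcripts. Another choice of length could change the order of these genes and the percentages below. In p140Cap cells the first 5 were in the same order, from *Cdh1* (127 ± 6.39 CPM per kb) and *Vim* (55.9 ± 2.52) to *Esrp1*, *Twist1* and *Snai1* (2.18 ± 0.116). *Zeb2* (0.0896 ± 0.0157 CPM per kb), *Cdh2* (0.0668 ± 0.0188) and *Fn1* (0.00735 ± 0.00278) then followed. In p140Cap cells *Zeb2* and *Cdh2* overlapped, as did *Fn1* with *Zeb1*. Per kb, *Cdh1* was above 98.2% of the genes tested in mock and 98.4% in p140Cap cells, and *Vim* above 94.0% and 95.5%. *Cdh2*, in contrast, was above 12.8% and 1.48%, and *Fn1* above 7.53% and 0.238%. Both groups thus held abundant *Vim* mRNA beside *Cdh1*. An annotated lncRNA on the other strand shares exon sequence with *Snai1*, *Zeb1*, *Zeb2*, *Esrp1*, *Vim* and *Fn1*, and the sources do not tell if reads were assigned by strand.

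For *Cdh1* and *Vim*, the genes with the most similar course over the 6 libraries were sought among the 11799 other genes tested, by Euclidean distance of log2 CPM after each gene was centred on its own mean. Closest to *Cdh1* were *Snapc4*, *Hnrnpul1* and *Ltk*, at distances of 0.0379, 0.0404 and 0.0459 log2 units. Closest to *Vim* were *Cited2*, *Ptpn6* and *Adam15*, at 0.0387, 0.0404 and 0.0435.

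Other transcription factors known to induce EMT were examined next (17 genes, of which 10 were tested). At an adjusted p under 0.05, 3 were higher and 3 lower in p140Cap cells, or 60.0% called beside the 71.1% of all genes, and their median difference was -0.04 on the log2 scale beside 0.00 over all genes tested. *Sox9*, a progenitor factor of mammary epithelium, rose from 44.5 ± 0.830 to 62.3 ± 1.45 CPM (SD, n = 3 libraries each). *Sox4* also rose, by a log2 fold change of 0.20. The largest change was that of *Hmga2*, a chromatin protein gene that acts upstream of Snail and Twist factors, which was at 6.70 ± 0.285 CPM in mock and 2.87 ± 0.642 CPM in p140Cap cells (log2 fold change -1.23, SE 0.14, adjusted p = 6.76e-07, edgeR). *Tcf4*, encoding an E protein that pairs with TWIST1, fell by 0.20 on the log2 scale (adjusted p = 0.0138, edgeR). Its call was lost without mock replicate 1 (adjusted p = 0.0531) or p140Cap replicate 2 (adjusted p = 0.0670, edgeR). *Twist2*, *Gsc* and *Tbx3* had 0 reads in all 6 libraries, and *Foxc2* and *Klf8* had 4 reads or fewer per group. *Prrx1*, a homeobox EMT inducer, was not tested either, with 1, 2 and 0 reads in mock and 3, 4 and 2 reads in the shallower p140Cap libraries. The pooled level of *Prrx1* in mock was 0.0969 times that in p140Cap cells, with exact 95% limits of 0.0169 and 0.388 for counting error. *Foxq1*, a forkhead EMT inducer that was likewise not tested, had 32, 20 and 13 reads in mock and 5, 3 and 2 in p140Cap libraries, a pooled ratio of 1.89 with limits of 0.964 and 4.12.

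Of 16 transcription factor genes of the epithelial state, 15 were tested, with 6 higher and 4 lower in p140Cap cells (66.7% called beside 71.1% of all genes tested, median log2 fold change 0.09). The 4 lower became 2 without mock replicate 1, and likewise 2 without p140Cap replicate 1. *Grhl2*, a grainyhead factor that sustains *Cdh1*, was called higher, with a log2 fold change of 0.30. Larger increases were those of the ETS factor genes *Elf3* (log2 fold change 0.54, SE 0.07) and *Ehf* (0.43, SE 0.05). *Foxa1*, the pioneer factor of luminal cells, fell from 3.34 ± 0.397 to 1.34 ± 0.526 CPM (SD, n = 3 libraries each; log2 fold change -1.34, SE 0.22, adjusted p = 4.00e-05, edgeR). *Grhl3* fell by 0.92 on the log2 scale (SE 0.18). *Ovol2*, a zinc finger repressor of *Zeb1*, was called at -0.28 (adjusted p = 0.0214, edgeR), a call that was lost without mock replicate 1 (adjusted p = 0.0546) or p140Cap replicate 1 (adjusted p = 0.148, edgeR) and under DESeq2.

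All 12 genes of splicing factors that act beside or against ESRP1 were tested and called, 5 higher and 7 lower, where 71.1% of all genes tested were called, 35.2% higher and 35.9% lower. *Esrp2*, the paralog of *Esrp1*, rose from 80.2 ± 3.18 to 97.8 ± 4.18 CPM, and *Rbm47*, which also favors epithelial splice forms, had a log2 fold change of 0.21. *Mbnl2*, *Ptbp2* and *Rbfox2* had the largest increases, of 0.49, 0.49 and 0.34 on the log2 scale. The general factors *Hnrnpm*, *Srsf1* and *Ptbp1* were abundant and had the largest decreases, with log2 fold changes of -0.86, -0.78 and -0.73 (SE 0.05 each). *Hnrnpm*, whose product competes with ESRP1 on shared exons, was thus at 419 ± 19.0 CPM in mock and 231 ± 1.75 CPM in p140Cap cells (adjusted p = 1.75e-10, edgeR).

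The epithelial marker list (40 genes, 38 tested) held genes of junctions, keratins, apical proteins and proteases. At an adjusted p under 0.05, 21 were higher and 7 lower in p140Cap cells, or 73.7% called beside 71.1% of all genes (35.2% higher and 35.9% lower), with a median log2 fold change of 0.17 beside 0.00 over all genes tested. The largest increases were those of *Muc1* (log2 fold change 0.75, SE 0.09), the desmosomal plakophilin gene *Pkp2* (0.49, SE 0.05) and the claudin gene *Cldn4* (0.49, SE 0.06). *Epcam*, an epithelial adhesion molecule, rose from 892 ± 22.1 to 1195 ± 32.7 CPM (SD, n = 3 libraries each; log2 fold change 0.42). *Lamb3*, encoding a chain of the basement membrane protein laminin-332, fell from 27.6 ± 1.03 to 9.66 ± 1.76 CPM (log2 fold change -1.52, SE 0.09, adjusted p = 5.12e-10, edgeR). The keratin gene *Krt7* had the next largest decrease (-0.84, SE 0.06). Of 3 catenin genes on this list, named after their values were seen, *Ctnnd1*, encoding p120-catenin, rose by 0.18 log2 units (SE 0.05, adjusted p = 0.00233). *Ctnna1*, encoding α-catenin, was not called, at 0.05 log2 units (SE 0.05, adjusted p = 0.320), nor was *Jup*, encoding plakoglobin, at -0.13 (SE 0.06, adjusted p = 0.0712, edgeR). *Cdh3*, encoding P-cadherin, had 10 reads in all mock and 0 reads in all p140Cap libraries.

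Most mesenchymal marker genes were hardly expressed in either group. Of the 43 genes in the counts, 27 had too few reads for a test, and 11 had 0 reads in all mock and 16 in all p140Cap libraries, among them *Col1a2*, *Col3a1*, *Dcn*, *Lum* and *Thy1*, which had none in either. Of the 16 tested, 5 were higher and 5 lower (62.5% called beside 71.1% of all genes tested, median log2 fold change -0.06). Each of the 5 lower genes fell by at least 1 log2 unit, as 5.04% of all genes tested did. *Nt5e* and *Ctgf* among them passed the filter on low counts through their level in mock cells alone. When at least 10 reads were required in every library, 5 were higher and 2 lower, because *Nt5e*, *Ctgf* and *S100a4* were no longer tested. *Nt5e*, encoding the surface enzyme CD73, fell from 5.21 ± 0.441 to 0.953 ± 0.50 CPM (SD, n = 3 libraries each; log2 fold change -2.48, SE 0.23, adjusted p = 5.66e-08, edgeR). The matrix genes *Postn* and *Tnc*, encoding periostin and the fibronectin-binding protein tenascin-C, had log2 fold changes of -1.36 (SE 0.12) and -1.30 (SE 0.09). *Ctgf* (-2.45, SE 0.27) and *S100a4* (-1.31, SE 0.27) made up the rest and were named after their values were seen. *Sparc*, another matrix gene named in this way, had 47, 15 and 21 reads in mock and 1, 0 and 1 reads in p140Cap libraries and was not tested. The largest increases were those of *Col1a1* (log2 fold change 0.80, SE 0.16), the membrane protease gene *Mmp14* (0.56, SE 0.07) and the integrin gene *Itgav* (0.47, SE 0.05). *Itga5*, whose product pairs with integrin β1 as the fibronectin receptor, had 4 reads over all mock and 0 over all p140Cap libraries.

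**Figure D4:**
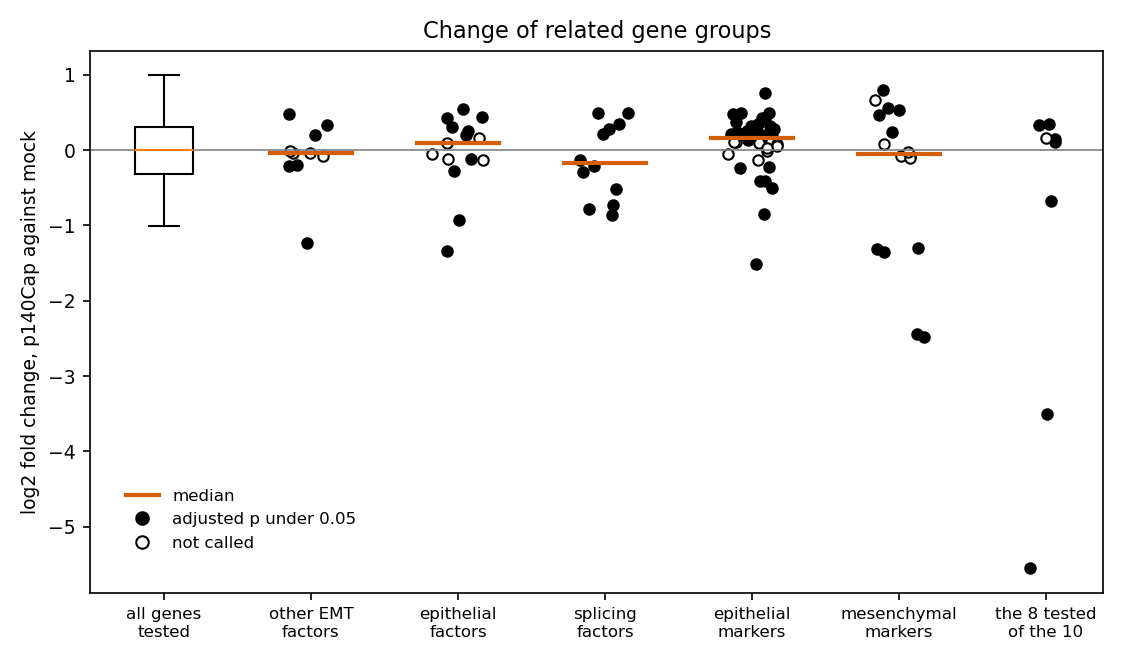
log2 fold changes (p140Cap against mock) of the tested genes of 5 related groups and of the 8 tested members, filled where the adjusted p was under 0.05, with the median of each related group in orange, beside a box of all 11800 genes tested (quartiles, with whiskers at the 5% and 95% points, -1.01 and 0.99). Most genes of the related groups lie within the whiskers, and *Fn1* (-5.55) and *Cdh2* (-3.50) lie far below them.

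Markers of other cell types that a culture of mammary tumor cells could hold were also examined, and their part in the results was not tested. Of 8 fibroblast markers, *Col1a2*, *Col3a1*, *Dcn*, *Lum* and *Thy1* had 0 reads in every library. The list summed to 9.97 to 10.5 CPM in mock and 11.3 to 14.1 CPM in p140Cap libraries, nearly all of it *Pdgfra* (7.18 ± 0.688 CPM in mock and 7.67 ± 0.830 CPM in p140Cap cells) and *Col1a1* (2.97 ± 0.581 and 5.02 ± 0.552 CPM). Of 8 immune markers, *Ptprc*, *Adgre1*, *Cd3e* and *Lyz2* had 0 reads in every library, and the sum of 2.08 to 2.34 CPM in mock and 3.23 to 4.09 CPM in p140Cap cells was nearly all *Cd68*, a lysosomal protein gene that rose (log2 fold change 0.83, SE 0.15). Of 6 endothelial markers, *Kdr* had 0 reads in every library, and the sums were 0.270 to 0.553 CPM in mock and 0.613 to 0.923 CPM in p140Cap libraries. *Pecam1*, the one endothelial marker with enough reads for a test, had 18, 17 and 5 reads in mock and 11, 7 and 10 in p140Cap libraries and was called higher (log2 fold change 1.25, SE 0.42, adjusted p = 0.0133, edgeR). It passed the filter on low counts through its level in p140Cap cells alone. None of 8 myoepithelial markers had enough reads for a test, with sums of 0.679 to 1.08 CPM in mock and 0.613 to 1.25 CPM in p140Cap libraries.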

How the data were processed

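RNA-Seq counts of 3 mock and 3 p140Cap TuBo libraries were analysed. Following the paper, libraries were stranded TruSeq libraries sequenced on an Illumina NextSeq, and the labels add poly(A) selection. The authors deposited whole numbers per gene and library, without normalization. Because the submitters' processing notes list STAR 2.5, RSEM and mm10, with no role or order, these were read as estimated counts, in which reads shared by several genes may be divided. The paper names GRCm39 instead, and no source used here gives the annotation release.

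Tests were run in edgeR 4.0.16 under R 4.3.3 (TMM factors, filterByExpr by group, quasi-likelihood test with group as the sole term, Benjamini-Hochberg adjustment over 11800 genes, threshold 0.05). SEs were derived as |log2 fold change|/√F. The common coefficient of biological variation was 4.57%. Mean chi-square values of same-group libraries over genes with at least 20 reads per pair were 1.75 to 10.7, where sampling noise gives 1, so no library was a copy of another. The script was also run on simulated counts in which few genes changed, whereas 71.1% of genes were called here. That run checked the code and is not support for the calls in these data.

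The 10 genes and all lists were chosen with earlier results of these data known. The text names, per list and direction, the 3 called genes that changed most, provided that mean log2 CPM reached 1 and the groups did not overlap. Some genes that meet this rule are counted but not reported by name here. For *Cdh1* and *Vim* it names the 3 nearest patterns. Named with their values known, beyond this rule, were *Grhl2*, *Esrp2*, *Rbm47*, *Ctnnd1*, *Ctnna1*, *Jup*, *Cdh3*, *Itga5*, *Ctgf*, *S100a4*, *Sparc*, *Pecam1*, *Pdgfra*, *Prrx1*, *Foxq1* and genes named as having few or 0 reads. Positions are from RefSeq (GRCm38.p6, the assembly of mm10), and exon lengths and overlaps from GENCODE vM39 (GRCm39), joined by Ensembl identifier. Alternatives were DESeq2 1.42.0, limma-voom (limma 3.58.1), RLE factors, other filters on low counts, thinning to the smallest library, a block for replicate number, and omission of each library in turn.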

Additional observations from a re-analysis of the deposited data

How the results depend on the processing

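In the main analysis 7 of 8 tested members were called, beside 8388 of all 11800 genes tested. With no filter on low counts these were 5 of 10 members and 8716 of 15860 genes. With any library left out, 5 to 6 of 8 members and 7851 to 8253 of 11652 to 12146 genes were called. With at least 10 reads required in every library, 4 of 6 members and 8076 of 11209 genes were called. That filter removes *Fn1* and *Cdh2* from the test by its construction. *Fn1*, *Cdh2*, *Zeb2*, *Twist1* and *Vim* kept their direction and their call under every alternative that tested them, and *Snai1* was called under none of the 13. *Cdh1* was called under 4 of 13 alternatives. It was lost with no filter (adjusted p = 0.178), with at least 10 reads in every library (0.0590), with the replicate block (0.0856) and with each library left out. *Esrp1* was also lost with no filter (adjusted p = 0.0504), and *Ovol2* with DESeq2 (0.0859). The cause of these losses was not tested. Total counts of called genes in the 5 related lists stayed within 1.5 times their main value. Counts by direction moved further for the 10 genes, of which 4 were higher but 2 with no filter, without mock replicate 3 or without p140Cap replicate 1. The same held for the mesenchymal markers, of which 5 were lower but 2 with at least 10 reads in every library, and for the epithelial factors, of which 4 were lower but 2 without mock replicate 1 or p140Cap replicate 1.

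Labels number the replicates alike in both groups, but do not tie them to a shared day. Deviations of same-numbered libraries from their group means correlated by 0.0592, -0.491 and -0.0813 for the 3 pairs, and no library correlated best with its own number, so the numbers were not read as pairs. With the replicate number as a block, 6 of the 8 tested members were called, *Cdh1* being the one lost, beside 8034 of all 11800 genes tested.

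The difference between groups in the log2 ratio of *Snai1* to *Snai2* reads was -1.0 and became 0.0103 with all libraries thinned to the smallest total, and that of *Zeb1* to *Zeb2* moved from 2.87 to 1.35. Since *Snai2* and *Zeb1* had 1 read each over all libraries, these ratios followed library depth and the added 0.5 reads and are not measurements of the genes. Depth in p140Cap cells limits the size of the decrease of *Fn1*, which rests on 5 reads. With all libraries thinned, its log2 fold change was -5.32.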
